A study of Mus musculus with 4 samples.

Results

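The genes described here encode the enzymes that carry out the first step of ethanol oxidation, from ethanol to acetaldehyde. They are the alcohol dehydrogenases Adh1, Adh4, Adh5 and Adh7, the cytochrome P450 Cyp2e1 and the catalase Cat. Members were the rows of the count table whose symbol was one of these names, which gave 6 of 22155 symbols, and all 6 passed the filter on low counts that left 13309 genes for testing. Messenger RNA was sequenced from whole liver of wild-type C57BL/6 mice, 8 to 10 weeks old, that had taken a Lieber-DeCarli liquid diet with 5% ethanol for 10 days. In 2 libraries, titled chronic ethanol + gavage 9 hour, a single binge dose (5 g of ethanol per kg of body weight) was given by gavage and the mice were killed 9 h later. The other 2 libraries, titled chronic ethanol alone, had the diet without the gavage. The treatment text of the labels is the same for all 4 libraries, so groups rest on the titles and the treatment tag, and the sex of the mice, any control gavage and the time of killing without a binge are not stated. The Y-linked genes Ddx3y, Eif2s3y, Kdm5d and Uty each had 0 or 1 count in every library, so transcripts of these genes were all but absent. By the diet, both groups were exposed to ethanol. The comparison is of a binge on top of feeding, with no ethanol-free group in it.

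Alcohol dehydrogenases are zinc enzymes of the cytosol that pass electrons from ethanol to NAD, and the class I enzyme carries most ethanol clearance in liver. CYP2E1 sits in the endoplasmic reticulum of hepatocytes around the central vein, uses NADPH and oxygen, and has a lower affinity for ethanol. It is known for the rise of its protein under chronic ethanol, largely through slower breakdown of the protein, which messenger RNA does not show. Catalase, a peroxisomal enzyme that breaks down hydrogen peroxide, can oxidise ethanol at the expense of peroxide.

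The libraries held 28791281 to 30347558 counts, and values are given as CPM, counts scaled to library size with TMM factors, with replicate 1 named before replicate 2. Where a mean is given, it is ± SD with n = 2. The labels do not tie the libraries to separate animals, so p-values measure the spread between these samples only. Hepatocyte markers were abundant in every library, with 5 markers summing to 134947 and 117887 CPM for ethanol alone and 94921 and 116421 CPM after gavage. Alb made up most of each sum, at 110898 and 100866 and then 83277 and 99816 CPM. Ttr lay lower after gavage, at 6537 and 5394 and then 3064 and 3350 CPM. Alb also lay lower without overlap of the groups, while Apoa1, Serpina1a and Cps1 overlapped. In bulk liver, fewer cells of a type and less RNA per cell cannot be told apart. Replicate 1 of ethanol alone stood apart by exocrine pancreas markers, which summed to 971 CPM there and to 4.43 to 8.23 CPM in the other libraries, and by Slco1a1, a hepatocyte uptake transporter, at 629 CPM against 1.86 to 10.1 CPM. Skeletal muscle markers summed to 254 and 7.43 CPM for ethanol alone and to 510 and 0.365 CPM after gavage, and adipose markers likewise marked both libraries numbered 1 (33.6 and 43.5 CPM against 0.033 and 0.0664 CPM). Kupffer cell markers summed to 456 and 450 CPM for ethanol alone and to 265 and 292 CPM after gavage. The part of these cell types in the differences below was not tested, and only the fold changes of the 6 members are also given with libraries left out, one at a time. The pair ratios, levels per kb, neighbouring genes, pathway lists and likeness rest on all 4 libraries.

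Of the 6 genes, 5 lay lower after the gavage in both libraries than in either library of ethanol alone, and 1, Adh7, lay higher in both. Among all genes tested, 54.7% had groups that did not overlap, 27.2% lower and 27.5% higher, and 48.3% had a fold change below 0, so a lack of overlap alone was common. The median log2 fold change of the members was -0.96, against 0.02 over all genes. In mean CPM, Cyp2e1 was 2.53-fold, Cat 2.40-fold and Adh4 4.93-fold lower after the gavage, Adh7 was 3.79-fold higher, and Adh1 (1.59-fold lower) and Adh5 (1.39-fold lower) differed least. After Benjamini-Hochberg adjustment the quasi-likelihood test of edgeR called no member, and it called 0% of genes over the whole table. At an unadjusted p under 0.05, 4 members were past the limit against 18.8% of all genes: 3 lower (Adh4, Cat and Cyp2e1), where 9.85% of all genes were, and 1 higher (Adh7), where 8.91% were. DESeq2 called the same 4 members at an adjusted p under 0.05, against 8.84% of all genes (4.9% lower and 3.94% higher). The likelihood-ratio test of edgeR also called these 4, against 4.13% of all genes (1.98% lower and 2.14% higher). As these tests read the same 4 libraries, they are not separate support.

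**Figure D1:**
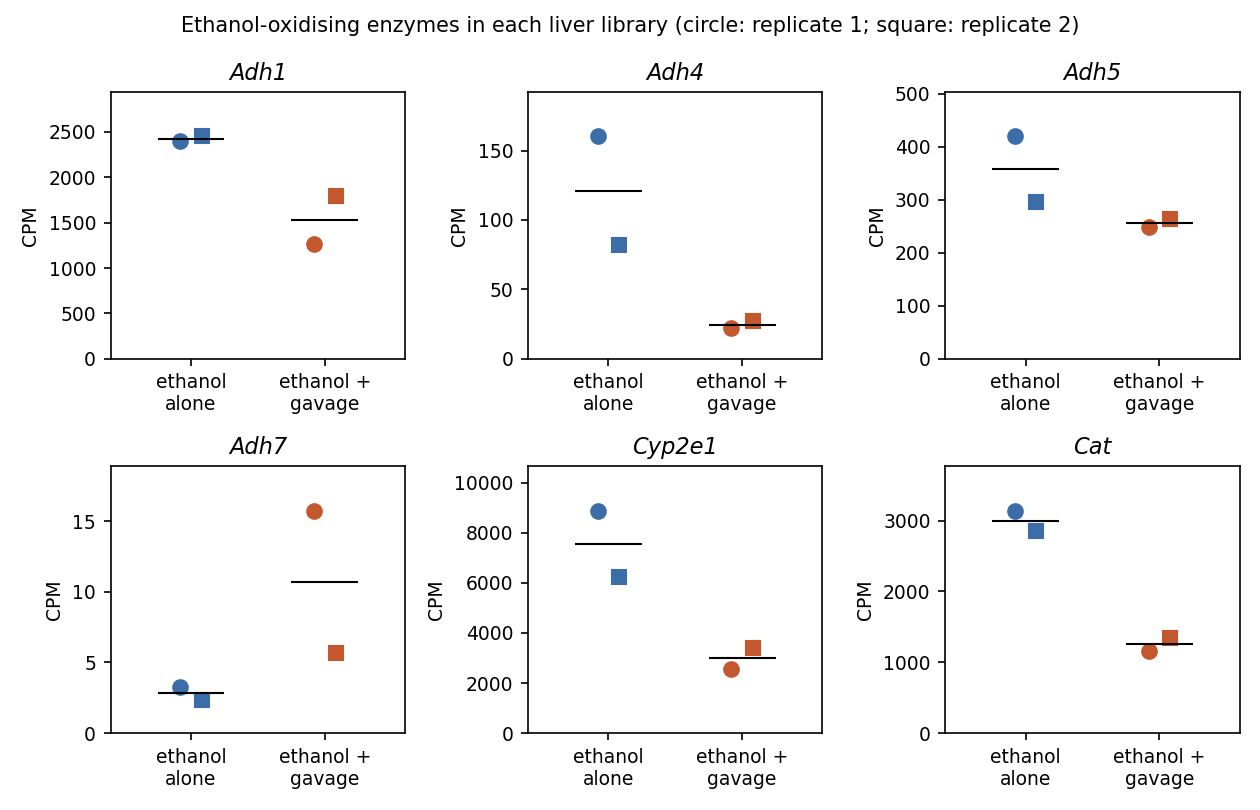
CPM of each of the 6 genes (linear vertical axes from 0, one panel per gene) in each library, circles for replicate 1 and squares for replicate 2, blue for ethanol alone and orange for ethanol with gavage; the bar is the mean of the 2 libraries. The orange points lie below the blue ones for Adh1, Adh4, Adh5, Cyp2e1 and Cat, and above them for Adh7, where the gavage libraries stood at 15.7 and 5.65 CPM.

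The stretches before the RefSeq transcription starts of the 4 genes with an unadjusted p under 0.05 are shown 5′ to 3′ in GRCm38.p6, cut at the first base that GENCODE annotates as exon, because these genes differed most between the groups in both directions. Capitals mark matches to the motifs searched. These were the core promoter element TATAAA, the NF-Y motif CCAAT, the E-box CACGTG, the nuclear receptor half-site AGGTCA, the D-box TTATGTAA, the HNF1 palindrome and the C/EBP palindrome TTGCGCAA. Both strands were searched, and no matches overlapped each other.
Adh4 chr3:138415247-138415465, plus strand: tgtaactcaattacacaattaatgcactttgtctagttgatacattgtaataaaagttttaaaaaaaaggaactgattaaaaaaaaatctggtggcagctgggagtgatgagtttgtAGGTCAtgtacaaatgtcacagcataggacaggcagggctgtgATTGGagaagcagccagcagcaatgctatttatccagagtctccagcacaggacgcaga
Adh7 chr3:138217523-138217759, plus strand: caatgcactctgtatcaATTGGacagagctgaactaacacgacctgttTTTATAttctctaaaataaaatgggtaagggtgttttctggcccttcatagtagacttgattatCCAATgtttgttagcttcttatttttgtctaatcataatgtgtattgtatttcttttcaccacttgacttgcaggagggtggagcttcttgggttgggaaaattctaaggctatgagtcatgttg
Cyp2e1 chr7:140763569-140763738, plus strand: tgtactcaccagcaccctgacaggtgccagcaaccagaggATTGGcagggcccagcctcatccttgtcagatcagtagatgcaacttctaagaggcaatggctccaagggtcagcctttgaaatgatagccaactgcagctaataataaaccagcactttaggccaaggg
Cat chr2:103485161-103485403, minus strand: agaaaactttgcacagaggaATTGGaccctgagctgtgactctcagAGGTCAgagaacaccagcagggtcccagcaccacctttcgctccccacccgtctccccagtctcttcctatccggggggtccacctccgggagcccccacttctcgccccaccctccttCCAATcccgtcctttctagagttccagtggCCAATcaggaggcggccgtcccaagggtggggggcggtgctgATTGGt

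All 6 members were found in the RefSeq promoter table. The 243 bases before Cat held 4 CCAAT matches, a motif present in 33.3% of all promoters cut to that length, and 1 AGGTCA half-site (13.7% of all promoters). They had a GC content of 61.7% and 9 CpG, against medians of 52.3% and 5 over all promoters. The 219 bases before Adh4 held 1 CCAAT match (30.9% of all promoters) and 1 AGGTCA (12.5%), at a GC content of 39.7%. Before Cyp2e1, 170 bases held 1 CCAAT match (23.3% of all promoters) and 0 CpG. Adh7, which lay in the other direction, had 2 CCAAT matches (32.8% of all promoters) and 1 TATAAA (12%) in 237 bases. This TATAAA was on the opposite strand, 202 bases before the RefSeq start. Windows shorter than 250 bases stop short of that start, so the bases nearest it were not searched. The E-box, D-box, HNF1 and C/EBP motifs had no match in these 4 windows. For Adh1 none of the 7 motifs matched in the 250 bases before the RefSeq start (chr3:138277335-138277584). That window lies inside the GENCODE span of the gene (138260991 to 138290698). The bases before the GENCODE start of Adh1 were not searched. Adh5 has 2 RefSeq starts, with 1 TATAAA 207 bases before the upstream start. The window before the other had none of the motifs, a GC content of 63.6% and 21 CpG, against a median of 6 CpG. A match here describes letters and no binding was measured.

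Adh1 encodes the class I enzyme, the main hepatic alcohol dehydrogenase, and lies on chromosome 3 from 138260991 to 138290698 (GRCm38, whole gene with introns and UTRs). It stood at 2400 and 2448 CPM with ethanol alone and at 1264 and 1789 CPM after the gavage. The libraries without a binge lay close together, those with it 1.42-fold apart, and the groups did not overlap. The log2 fold change was -0.67 (SE 0.28, 95% interval -1.37 to 0.03, edgeR quasi-likelihood adjusted p = 0.276). Without replicate 1 of the gavage group it was -0.44 and without replicate 2 of that group -0.95, so its size depended on which gavage library was used. It was -0.46 with a length and GC offset on all 4 libraries, so its size also depended on that setting. Leaving out replicate 1 of ethanol alone gave -0.71.

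Adh4 encodes the class II enzyme, which has a high Michaelis constant for ethanol and also oxidises retinol (chromosome 3, 138415466 to 138430892). It stood at 160 and 81.8 CPM with ethanol alone and at 22 and 27 CPM after gavage. Both gavage libraries lay far below both others, although replicate 1 of ethanol alone was 1.96-fold above replicate 2. The log2 fold change was -2.30 (SE 0.37, 95% interval -3.25 to -1.36, edgeR quasi-likelihood adjusted p = 0.133). It was -1.77 without replicate 1 of ethanol alone, the library with pancreas markers, and -2.76 without replicate 2, and -2.16 when gavage replicate 1 was left out. DESeq2 gave an adjusted p of 1.03e-07 on all 4 libraries and called Adh4 lower with any 1 of the 4 libraries left out, the highest adjusted p being 3.05e-04.

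Adh5 encodes the class III enzyme, which acts mainly on the glutathione adduct of formaldehyde and on S-nitrosoglutathione and has little activity with ethanol (chromosome 3, 138443093 to 138455499). It stood at 419 and 295 CPM with ethanol alone and at 248 and 264 CPM after gavage. The lower library of ethanol alone lay only slightly above the gavage libraries. The log2 fold change was -0.48 (SE 0.26, 95% interval -1.13 to 0.18, edgeR quasi-likelihood adjusted p = 0.368), so an interval around 0 was left. Leaving out replicate 1 of ethanol alone gave -0.23, and leaving out replicate 2 gave -0.77, while leaving out gavage replicate 1 gave -0.44. In DESeq2 the adjusted p was 0.255, and 0.0284 without replicate 2 of ethanol alone.

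Adh7 encodes the class IV enzyme, a retinol and ethanol dehydrogenase best known from the stomach and other surface epithelia (chromosome 3, 138217760 to 138233382). It had 90 and 71 counts with ethanol alone and 494 and 170 counts after gavage, or 3.29 and 2.35 against 15.7 and 5.65 CPM. Both gavage libraries were above both others, but they were 2.79-fold apart. The log2 fold change was 1.92 (SE 0.53, 95% interval 0.57 to 3.28, edgeR quasi-likelihood adjusted p = 0.192). Without replicate 1 of ethanol alone it was 2.17, and without replicate 1 of the gavage group 1.00. The DESeq2 call, adjusted p = 0.0121 on all libraries, was lost without that gavage library (adjusted p = 0.794). It was lost as well when ethanol alone lacked its replicate 1 (0.139) or its replicate 2 (0.172), and held only without the other gavage library (0.00258, log2 fold change 2.46). Of 7 stomach mucosa markers, Gkn1, Gkn2 and Muc5ac had no count in any library. The 7 together summed to 8.46 and 0.562 CPM with ethanol alone and to 0.51 and 0.133 CPM after gavage. Tff2 held 196 of the 231 counts in replicate 1 of ethanol alone. Replicate 2 of ethanol alone held 17 counts and the gavage libraries 16 and 4, too few to compare. The part of stomach tissue in the value of Adh7 was not tested. Neutrophil markers, 6 genes, were highest in the same library as Adh7, at 13.2 CPM in replicate 1 and 3.39 CPM in replicate 2 of the gavage group against 2.31 and 1.85 CPM. S100a8 and S100a9 made up most of that sum, with 137 and 249 counts in replicate 1 of the gavage group. Of the more specific markers, Ly6g and Mpo had 0 counts there and at most 2 in any library. Elane had 2 there and 3 in gavage replicate 2, against 1 and 1 with ethanol alone. Retnlg lay higher after gavage, as S100a8 and S100a9 did, with 25 counts there and 16 in gavage replicate 2, against 6 and 5. Skeletal muscle and adipose markers were also highest in replicate 1 of the gavage group, at 510 and 43.5 CPM. The part of neutrophils, muscle or adipose tissue in the value of Adh7 was not tested.

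Cyp2e1 was the most abundant of the 6 genes in all libraries (chromosome 7, 140763739 to 140774987). It stood at 8877 and 6214 CPM with ethanol alone and at 2562 and 3413 CPM after gavage. Every gavage library lay below every library of ethanol alone by more than the gap within either group. The log2 fold change was -1.34 (SE 0.32, 95% interval -2.14 to -0.54, edgeR quasi-likelihood adjusted p = 0.163). It was -1.08 when replicate 1 of ethanol alone was left out and -1.14 when the first gavage library was. DESeq2 called it lower on all libraries (adjusted p = 1.53e-04), a call lost when that gavage library was left out (DESeq2 adjusted p = 0.0808).

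Cat lies on the minus strand of chromosome 2 (103453849 to 103485160). It stood at 3139 and 2857 CPM with ethanol alone and at 1164 and 1339 CPM after gavage. The libraries of a group differed by 1.10-fold and 1.15-fold, while the group means differed by 2.40-fold. The log2 fold change was -1.26 (SE 0.24, 95% interval -1.87 to -0.65, edgeR quasi-likelihood adjusted p = 0.134). It was -1.22 when replicate 1 of ethanol alone was left out and -1.16 when gavage replicate 1 was. DESeq2 called it lower on all libraries (adjusted p = 5.10e-08) and with any 1 of the 4 libraries left out, the highest adjusted p being 0.0365.

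**Figure D2:**
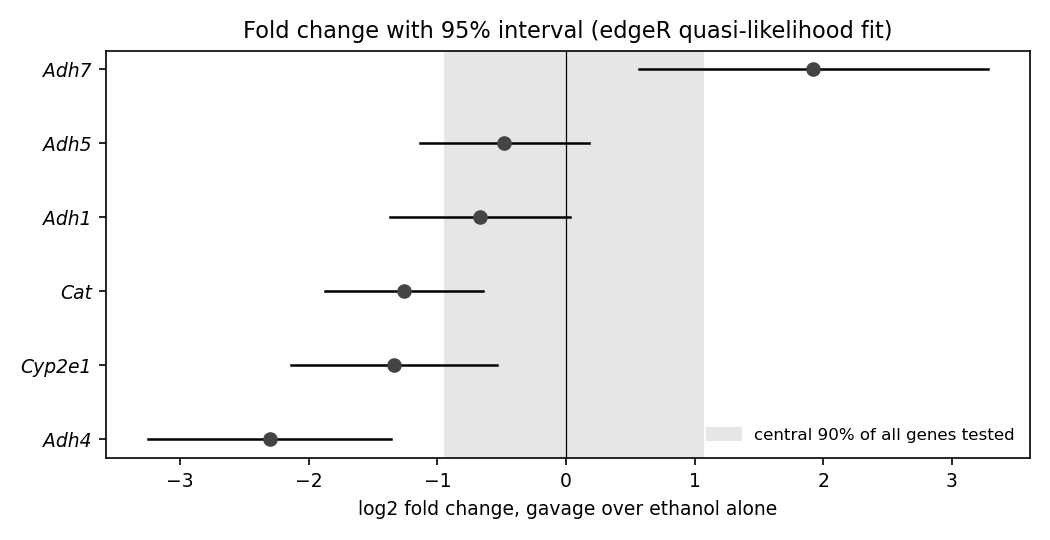
Log2 fold change of gavage over ethanol alone for each gene (points) with its 95% interval (lines), on the edgeR quasi-likelihood fit; the grey band spans the 5th to 95th percentile of all genes tested. Adh4, Cyp2e1 and Cat lie left of the band and Adh7 right of it, while the intervals of Adh1 and Adh5 include 0.

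Levels of different genes can be compared only per length, so CPM were divided by the length of the union of each gene's exons. With ethanol alone the order was Cyp2e1 (3497 ± 873 CPM per kb), Cat (1147 ± 76.4), Adh1 (1086 ± 15.2), Adh4 (83.4 ± 38.2), Adh5 (66 ± 16.2) and Adh7 (0.745 ± 0.177). In that order Cat and Adh1 overlapped, as did Adh4 and Adh5, and the other neighbours did not. By this level Cyp2e1 ranked 16 of 13110 genes with ethanol alone and 29 after gavage. After gavage the order was Cyp2e1 (1384 ± 279 CPM per kb), Adh1 (684 ± 166), Cat (479 ± 47.4), Adh5 (47.4 ± 2.01), Adh4 (16.9 ± 2.47) and Adh7 (2.82 ± 1.88), with no overlap between neighbours. Length matters for the order without a binge: on the longest transcript, Adh1 stood at 1625 ± 22.7 and Cat at 1147 ± 76.4 CPM per kb, and Adh5 at 95.8 ± 23.6 and Adh4 at 92 ± 42.2. The order after gavage was the same on either length.

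**Figure D3:**
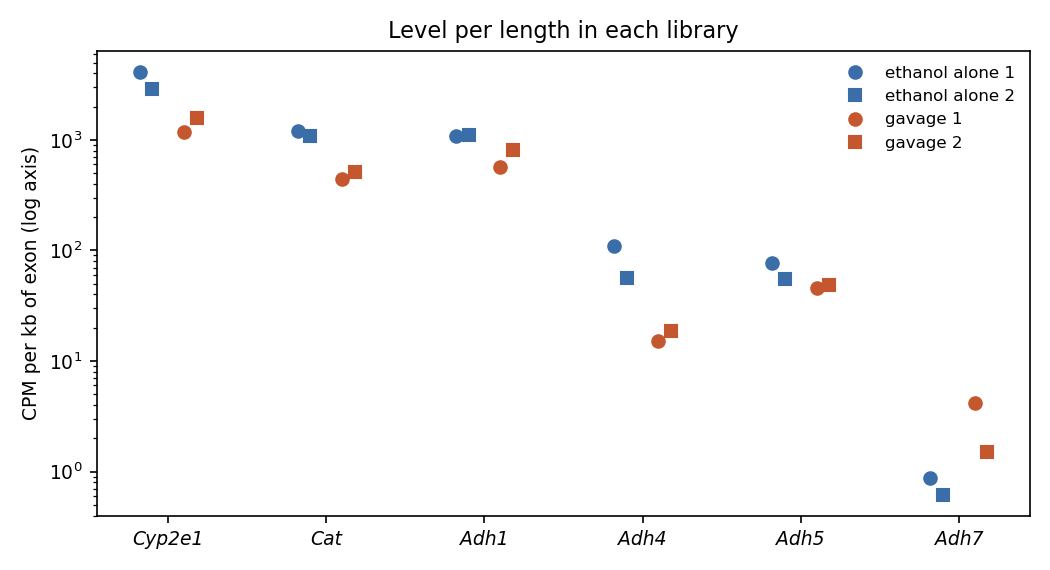
Level per kb of exon (log axis) of the 6 genes in each library, ordered by the mean with ethanol alone; circles are replicate 1 and squares replicate 2, blue for ethanol alone and orange for gavage. Cyp2e1, Cat and Adh1 lie between 446 and 4114 in every library, Adh4 and Adh5 between 15.2 and 110, and Adh7 at or below 4.15 CPM per kb.

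Summed over the 6 genes, the level per kb was 6579 and 5181 with ethanol alone and 2264 and 2964 after gavage, with no overlap. Cyp2e1 made up 62.5% and 55.6% of this sum with ethanol alone and 52.4% and 53.4% after gavage. Adh1 made up 16.3% and 21.2%, then 25% and 27%. Among the 4 alcohol dehydrogenases alone, Adh1 held 85.1% and 90.8% of the level per kb with ethanol alone and 89.7% and 92.1% after gavage, so the groups overlapped.

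Ratios between the levels per kb of union exon of 2 members within a library do not depend on how libraries were scaled. The 15 pairs draw on only 6 genes, so they are not separate observations. Of these pairs, 13 had ratios that did not overlap between the groups, where 54.7% of single genes tested did not overlap. The share over other pairs of genes was not computed. With 2 libraries against 2, the exact 2-sided permutation test cannot go below 0.333, the p of each of these 13 (0.385 adjusted over the 15 pairs). The ratio of Cyp2e1 to Cat overlapped, at 3.42 and 2.63 with ethanol alone and 2.66 and 3.09 after gavage (exact permutation p = 1). So did that of Adh1 to Adh5, at 13.9 and 20.1 and then 12.3 and 16.4 (exact permutation p = 0.667). These 2 pairs differed between the groups by less than the libraries of ethanol alone differed from each other. Adh4 stood to Adh5 as 1.42 and 1.03 with ethanol alone and as 0.33 and 0.382 after gavage. Whether Adh4 was above Adh5 with ethanol alone depended on the length used, as given above, while after gavage Adh4 was below Adh5 on both lengths. Adh4 to Adh7 went from 127 and 91 to 3.65 and 12.5, the widest shift of any pair.

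The 4 dehydrogenase genes lie within 238 kb on chromosome 3, all on the plus strand, in the order Adh7, Adh1, Adh4 and Adh5. Adh7 and Adh1, which are next to each other among the tested genes, lay in opposite directions. Adh6a and Adh6b, between Adh1 and Adh4, did not pass the filter. Adh6a had 10 counts in replicate 1 of the gavage group and 0 in the other libraries, and Adh6b had 2 and 3 counts with ethanol alone and 11 and 7 after gavage. Of the 11 other tested genes within 500 kb of the cluster, chosen by position alone, 9 lay higher and 2 lower. Over all genes tested 48.3% lay lower. The median log2 fold change of the 11 was 0.42, against 0.02 over all genes. Among those higher, the groups overlapped for Dapp1, 1110002E22Rik, Tspan5 and Rap1gds1. Mttp, the triglyceride transfer protein of lipoprotein assembly on the Adh7 side, stood at 346 and 456 CPM with ethanol alone and 863 and 706 CPM after gavage. Metap1, a methionine aminopeptidase next to Adh5, stood at 33.3 and 36.9 and then 47.3 and 46.9 CPM. H2afz lay lower without overlap of the groups, at 3.92 and 2.21 and then 1.69 and 1.43 CPM (log2 fold change -0.97). Mttp, Metap1 and H2afz were chosen after their values were seen. Of the 11 genes, 3 had an unadjusted quasi-likelihood p under 0.05. The difference between the cluster and its flanks was not tested.

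**Figure D4:**
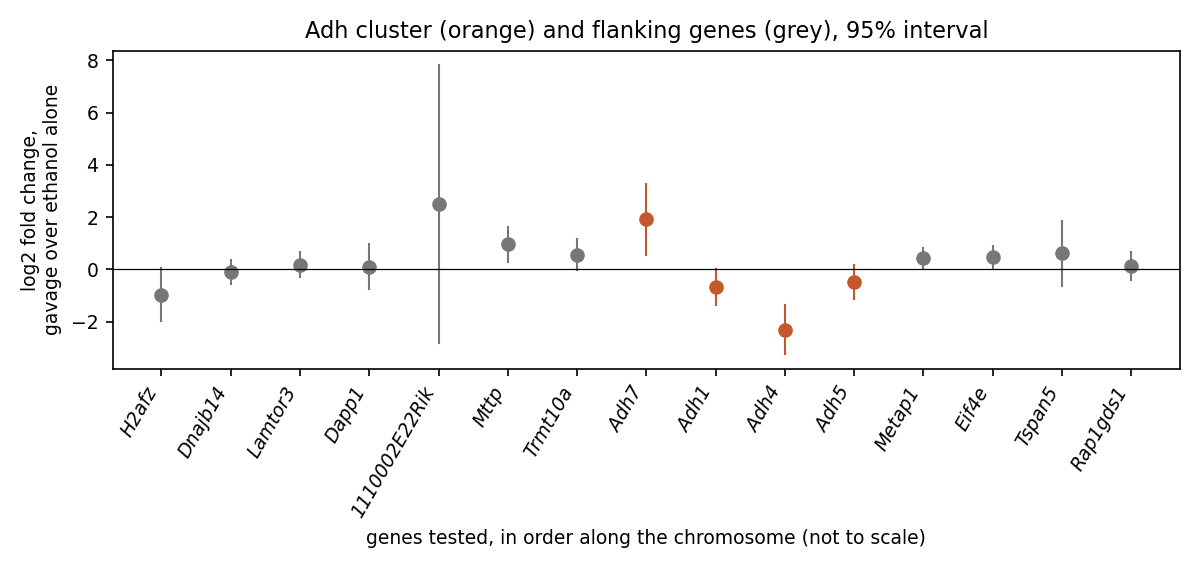
Log2 fold change with 95% interval for the tested genes of the Adh cluster (orange) and the genes within 500 kb on either side (grey), in chromosomal order and not to scale. Adh1, Adh4 and Adh5 lie below 0, Adh7 and 9 of the 11 flanking genes above it; 1110002E22Rik has a wide interval because its counts came almost wholly from 2 libraries.

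Reads could be told apart between the members. Of all stretches of 50 bases in the longest transcript, 0% of Adh4, Adh5, Adh7 and Cat, 0.277% of Adh1 (shared with the pseudogene Adh6-ps1) and 4.76% of Cyp2e1 also occurred in a transcript of another gene. Adh1 and Adh7 each overlap an annotated antisense gene, and as the strand setting of the counting is not given in the sources used here, reads from those could be included.

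The other genes of the pathway were taken from lists of 5 to 14 tested genes, and the edgeR quasi-likelihood test called none of them. Their counts are to be read against all genes tested, of which 48.3% had a fold change below 0, 27.2% lay lower without overlap of the groups, and DESeq2 called 4.9% lower and 3.94% higher. Of 9 genes listed for acetaldehyde and acetate, 8 lay lower and 1 higher (median log2 fold change -0.53), with 2 lower and 0 higher in DESeq2. Without overlap of the groups, 5 lay lower and 0 higher. Aldh2, the mitochondrial enzyme that takes up most acetaldehyde, stood at 2469 and 2189 CPM with ethanol alone and 1829 and 1889 CPM after gavage (log2 fold change -0.32). Aldh1a7, a cytosolic aldehyde dehydrogenase, had the smallest p among those lower, at 192 and 185 and then 84.9 and 109 CPM. Acss1, a mitochondrial acetyl-CoA synthetase and the only one higher, stood at 1.03 and 0.33 and then 2.36 and 0.299 CPM, with the groups overlapping.

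Genes that supply electrons to microsomal P450s, or encode other ethanol-oxidising P450s, lay lower in 6 of 8 cases (median -0.44), 3 without overlap of the groups. The list's 1 DESeq2 call, lower, was Cyb5b, which encodes a cytochrome b5 of the outer mitochondrial membrane rather than a microsomal protein. Por, the reductase that passes electrons from NADPH to CYP2E1, stood at 404 and 258 CPM with ethanol alone and 388 and 731 CPM after gavage, so it was not lower alongside Cyp2e1 and the groups overlapped. Cyb5b stood at 583 and 743 and then 316 and 346 CPM. Cyp3a11 differed more by replicate number than by group, at 643 and 2261 and then 661 and 1784 CPM. Of 12 pericentral companions of Cyp2e1, 8 lay lower and 4 higher (median -0.30), with 6 lower and 0 higher without overlap. DESeq2 called 3 lower and 0 higher, and 4.9% of all genes lower. Glul, the glutamine synthetase of the last hepatocytes before the central vein, was chosen after its values were seen and stood at 1276 and 1118 and then 1328 and 1108 CPM. Rgn, a calcium-binding lactonase, had the smallest p of the list, at 1850 and 1205 CPM with ethanol alone and 614 and 555 CPM after gavage. Cyp2c29, the most abundant companion, stood at 633 and 2516 and then 1462 and 1834 CPM, and Lgr5, a receptor of Wnt-active hepatocytes, at 8.38 and 14.8 and then 20.3 and 9.33 CPM. The groups did not overlap for Rgn and overlapped for Glul, Cyp2c29 and Lgr5.

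Around catalase, the list drawn up for peroxide removal by other routes lay lower in 8 of 10 cases (median -0.72). Each of the 8 had no overlap of the groups, and DESeq2 called 5 lower and 0 higher. The list holds the thioredoxin Txn1, among the 8 and the 5, and the reductase Txnrd1. The counts are therefore not of peroxide-removing enzymes alone. Over all genes 27.2% lay lower without overlap and DESeq2 called 4.9% lower. Gpx1, the cytosolic glutathione peroxidase, stood at 1890 and 1370 CPM with ethanol alone and 456 and 685 CPM after gavage, a log2 fold change of -1.51. Txnrd1, the cytosolic thioredoxin reductase, lay higher, at 109 and 149 and then 171 and 182 CPM. The list of peroxisomal enzymes drawn up for peroxide production was mixed, 6 lower and 4 higher of 10 tested (median -0.44), with 1 lower and 0 higher in DESeq2. One of the 6 lower, Phyh, is a hydroxylase that makes no hydrogen peroxide, so the count is not of peroxide producers alone. Uox, the urate oxidase, stood at 1973 and 1950 and then 2502 and 1745 CPM. Paox, a polyamine oxidase, stood at 32.3 and 21.8 and then 9.11 and 5.95 CPM, and Ddo, D-aspartate oxidase, at 17 and 21.9 and then 29.5 and 36.0 CPM. Peroxisome import genes lay lower in 4 and higher in 3 of 7 cases (median 0.00, with 1 lower and 0 higher in DESeq2). Pex5, the receptor that carries catalase into peroxisomes, stood at 120 and 132 and then 100 and 101 CPM. Pex7, the receptor for the other import signal, stood at 101 and 84.3 and then 58 and 59.6 CPM.

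In the list for the glutathione-dependent formaldehyde route that Adh5 serves, 4 of 5 tested genes lay lower (median -0.32), with 1 lower and 1 higher in DESeq2. Only Esd is a step of that route, and the others make or reduce glutathione, so the count is not of the route alone. Esd, which acts directly after ADH5, stood at 173 and 145 CPM with ethanol alone and 88.2 and 104 CPM after gavage. Gss, glutathione synthetase, stood at 67 and 68.4 and then 107 and 117 CPM. Gclc, the catalytic subunit of the step before it, stood at 238 and 352 and then 223 and 234 CPM. Of 14 transcription factors known from work on the promoters of these enzymes, 8 lay lower and 6 higher (median -0.19), with 1 lower and 0 higher in DESeq2. Both counts are near the shares over all genes, 48.3% below 0 and 4.9% called lower. Hnf4a, a hepatocyte master factor, stood at 872 and 1069 and then 859 and 754 CPM. Foxo3, a forkhead factor linked to catalase, stood at 67.3 and 56.6 and then 40.6 and 34.1 CPM. Dbp, a clock-driven factor of the D-box, stood at 11.8 and 19.9 and then 37.5 and 20.2 CPM. The time of day at killing is not given in the sources used here, and its part in any of these values was not tested.

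Genes whose pattern over the 4 libraries came nearest to a member's were found by the distance of centred log2 CPM among 7855 genes with a mean of at least 10 CPM. Nearest to Cyp2e1 was Elovl2, an elongase of polyunsaturated fatty acids, at 1290 and 909 CPM with ethanol alone and 364 and 493 CPM after gavage (distance 0.03), followed by Tm4sf1 and Mup10. Cat had Cbs, the first enzyme of transsulfuration, as its nearest gene (distance 0.04), at 708 and 658 and then 273 and 310 CPM, followed by Slc17a2 and Dnase1l3. For Adh1 the nearest were Gcdh, Fgfr2 and Bsg (distances 0.04 to 0.05), and for Adh4 they were Adck5, Hsd3b2 and Sult2a8 (0.28 to 0.34). Over 4 libraries such likeness is weak as a description, since 489 to 881 genes had a Pearson correlation of at least 0.95 with one of these members.

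**Figure D5:**
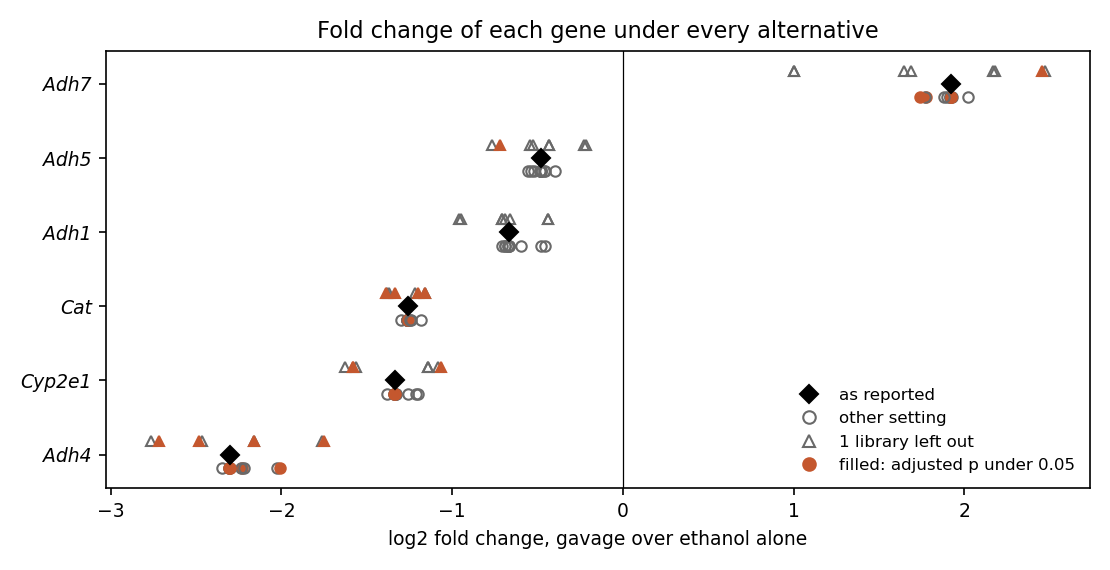
Log2 fold change of each gene as reported (black diamonds), under other settings (circles) and with 1 library left out (triangles); filled symbols have an adjusted p under 0.05. Every symbol of Adh7 lies above 0 and every symbol of the other 5 genes below 0, and filled symbols appear for Adh4, Cat, Cyp2e1 and Adh7 and once for Adh5.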

How the data were processed

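Messenger RNA of whole liver was sequenced in 4 libraries, 2 per group, placed in groups by their titles, since the treatment protocol is the same for all. The authors deposited raw counts, whole numbers for each gene symbol. The submitters' processing notes name the build GRCm38 and the tools STAR 2.6.0a, HTSeq, bcl2fastq 2.20.0.422 and edgeR, with no role stated. How strand and multi-mapping reads were treated, and the annotation, were not given in the sources used here. The labels' protocols name Trizol and library kits of both TruSeq and KAPA.

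Tests ran in edgeR 4.0.16 under R 4.3.3. There filterByExpr (minimum count 10, minimum total 15) left 13309 of 22155 symbols, and TMM factors were 0.951 to 1.05. The 2-sided quasi-likelihood F-test used all 4 libraries without covariates, with Benjamini-Hochberg adjustment over all genes and a threshold of 0.05. The SE is the absolute log2 fold change over the root of F. The test was checked on simulated counts with a smaller spread than the data had. Neither pair of replicates agreed within sampling noise (chi-square per degree of freedom 155 and 166). A count of 3 corresponds to 0.0955 to 0.110 CPM, which covers counting error only.

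Genes named from pathway lists were the most abundant and the smallest p in each direction, and others are said to be chosen after their values were seen. One gene that this rule names is not reported here. The members and lists were chosen with earlier results of these data known. Lengths and coordinates came from GENCODE on GRCm38, promoters from RefSeq. Alternatives were a replicate block, other scalings and filters, DESeq2 1.42.0, limma-voom (limma 3.58.1), the likelihood-ratio test, a length and GC offset (loess span 0.5), and each library left out.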

Additional observations from a re-analysis of the deposited data

How the results depend on the processing

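Under all 19 alternatives per gene, Adh7 stayed above 0 and Adh1, Adh4, Adh5, Cyp2e1 and Cat below 0, while calls depended on the test. DESeq2 called 1177 genes and passed Adh4 (-2.31), Adh7 (1.92), Cyp2e1 (-1.34) and Cat (-1.26), all log2 fold changes. The likelihood-ratio test called 549 genes and the same members (-2.30, 1.92, -1.34 and -1.26). The length and GC offset called 4 genes. For Adh1 that offset gave -0.46, and the quasi-likelihood log2 fold change without 1 library ran from -0.95 to -0.44. Leaving out 1 library, the quasi-likelihood log2 fold change ran from -2.76 to -1.77 for Adh4, from -0.77 to -0.23 for Adh5, from 1.00 to 2.47 for Adh7, from -1.63 to -1.08 for Cyp2e1 and from -1.38 to -1.16 for Cat, with no member past the threshold. DESeq2 without 1 library, chosen after seeing the data, gave -1.75, -2.72, -2.16 and -2.48 for Adh4 (without ethanol alone 1, ethanol alone 2, gavage 1 and gavage 2), -1.20, -1.34, -1.16 and -1.39 for Cat and -1.07, -1.58, -1.14 and -1.58 for Cyp2e1, with -0.72 to -0.21 for Adh5 and 1.00 to 2.46 for Adh7. The quasi-likelihood count of genes was 0 without replicate 1 of either group, 12 when replicate 2 of ethanol alone was left out and 31 when gavage replicate 2 was, and that of DESeq2 was 377, 1290, 244 and 513 in the order above. A lone library was assumed to vary like the other group.

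With the replicate number as a block, 410 genes passed, Adh4 (-2.23, adjusted p = 0.0281) and Adh7 (1.78, adjusted p = 0.0411) among them, and with the block and the length and GC offset 733 genes, again with Adh4 (-2.01) and Adh7 (1.74). Deviations of same-numbered libraries correlated at 0.59 across genes, but the labels do not say what the number marks, so it is not taken to pair animals.

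The number of libraries, 2 per group, limits what these tests can show. Adh1, Adh4, Adh5, Cyp2e1 and Cat had at least 690 counts in every library and Adh7 at least 71.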
